A study of Homo sapiens with 6 samples.

Results

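The distal H3K27ac peaks that were present in control MV4-11 cells and had no counterpart after ANP32B knockdown are described here. H3K27ac is the acetylation of histone H3 at lysine 27, and a peak is a stretch of the genome where the mark stood above background. The peaks were chosen by comparing the MV4-11 NC list with the MV4-11 sh-ANP32B list. A lost distal peak shared no base with any sh-ANP32B peak and lay outside the window of 2500 bases to each side of every canonical start of a protein-coding gene, on chromosomes 1 to 22 and X. Of 17302 distal NC peaks, 5088 met this rule (29.4%), and the other 12214 are called kept. Among all 24491 NC peaks on these chromosomes, promoter peaks included, the lost share was 29.1%. All 4 deposited lists together held 96832 peaks.

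MV4-11 and Kasumi-1 are human acute myeloid leukemia (AML) lines. MV4-11 carries a KMT2A fusion gene and an activated FLT3 receptor, and Kasumi-1 carries the RUNX1::RUNX1T1 fusion. In each line, control cells (NC, named untreated in the labels and a nontargeting hairpin in the study's methods) were set beside cells with a lentiviral short hairpin RNA against ANP32B (sh-ANP32B), a nuclear acidic protein that binds histones. H3K27ac was profiled by CUT&Tag, in which an antibody brings a Tn5 transposase to the marked chromatin. Each of these 4 groups had 1 peak list, called after replicates had been merged, so no value below has a replicate spread and the depth of each library is unknown. Intervals are 95% intervals for counting error, and they treat peaks as independent, although peaks that neighbor each other are not. The IgG samples, 1 per line, are not analysed here.

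Enhancers are stretches of DNA, often within introns or far from any gene, where transcription factors bind and recruit the acetyltransferases EP300 and CREBBP, which place H3K27ac on the flanking histones. Enhancers differ between cell types far more than promoters do. In AML, dense clusters of enhancers lie near genes that hold cells in an immature state, and blood factors such as PU.1, RUNX1, C/EBP proteins and the AP-1 dimers of FOS and JUN bind many of them. Acetylation at a site does not by itself show which gene it acts on, so a gene is named below only as the one whose start was nearest to the center of the peak.

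The cell line labels were set beside defining promoters. The promoter windows of HOXA9, HOXA10 and MEIS1, which a KMT2A fusion keeps active, held peaks in both MV4-11 lists, with 769 bases before and 659 after knockdown at HOXA9, 2648 and 1638 at HOXA10, and 3337 and 3123 at MEIS1. The FLT3 window held 299 bases in control MV4-11 cells and none after knockdown. The libraries labelled Kasumi-1 went against their label. RUNX1T1, POU4F1 and KIT, which mark cells with that fusion, had 0 bases in all 4 lists, and HOXA9 was covered over 4335 bases in the Kasumi-1 control and 4707 after knockdown. HOXA10 had 5001 bases in each Kasumi-1 list, MEIS1 had 3103 and 3264, and FLT3 had 2028 and 2008. The promoters of HOXA9, HOXA10, MEIS1 and FLT3 thus did not single out the MV4-11 lists, and they give no check of the MV4-11 label. SPI1, which encodes PU.1, had 3008 to 3127 bases in all 4 lists. Of the other myeloid genes, CEBPA had 1722 bases in control MV4-11 cells and none after knockdown, LYZ had 683 and 324, CD33 had peaks in the Kasumi-1 lists alone, and MPO had 0 bases in every list. The T cell, erythroid and epithelial markers looked at had 0 bases in every list, as did PAX5, a B cell factor. The promoter of ANP32B itself held a peak in both MV4-11 lists. A hairpin acts on the RNA, so this mark does not check the knockdown.

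Among wide lost peaks, far above the median width of 461 bases, the central 300 bases of 5 are given as examples. They are the 3 widest lost peaks that had a peak in both Kasumi-1 lists (in NACA, TTYH3 and MRTFA), followed by the 2 widest without a peak in either Kasumi-1 list (in GNAQ and CYP27A1); 1 chromosome was left out of this choice. Sequences are the plus strand of hg38, 5′ to 3′. Capitals mark matches to a RUNX (TGTGGTT), PU.1/ETS (GAGGAAGT), C/EBP (TTGCNNAA) or AP-1 (TGANTCA) motif on either strand, where N is any base. The CYP27A1 window was ended at 263 bases, before an untranslated stretch of another transcript.
NACA exon, chr12:56717980-56718279: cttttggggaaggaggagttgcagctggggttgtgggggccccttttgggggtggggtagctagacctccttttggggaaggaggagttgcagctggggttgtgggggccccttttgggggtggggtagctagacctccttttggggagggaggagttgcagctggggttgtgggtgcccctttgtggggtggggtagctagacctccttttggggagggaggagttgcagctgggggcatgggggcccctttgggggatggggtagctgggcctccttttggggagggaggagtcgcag
TTYH3 intron, chr7:2648150-2648449: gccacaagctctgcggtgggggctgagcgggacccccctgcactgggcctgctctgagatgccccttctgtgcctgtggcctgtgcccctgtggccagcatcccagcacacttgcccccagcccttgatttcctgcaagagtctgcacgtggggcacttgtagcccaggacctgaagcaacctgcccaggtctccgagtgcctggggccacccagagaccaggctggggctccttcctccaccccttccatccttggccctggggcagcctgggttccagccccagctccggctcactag
MRTFA intron, chr22:40436415-40436714: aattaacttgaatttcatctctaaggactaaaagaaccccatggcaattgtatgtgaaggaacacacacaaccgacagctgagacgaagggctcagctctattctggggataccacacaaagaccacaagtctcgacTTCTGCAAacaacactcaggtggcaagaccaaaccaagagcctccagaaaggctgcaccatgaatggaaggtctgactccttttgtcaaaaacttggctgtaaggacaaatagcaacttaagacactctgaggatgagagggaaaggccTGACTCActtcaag
GNAQ intron, chr9:77946329-77946628: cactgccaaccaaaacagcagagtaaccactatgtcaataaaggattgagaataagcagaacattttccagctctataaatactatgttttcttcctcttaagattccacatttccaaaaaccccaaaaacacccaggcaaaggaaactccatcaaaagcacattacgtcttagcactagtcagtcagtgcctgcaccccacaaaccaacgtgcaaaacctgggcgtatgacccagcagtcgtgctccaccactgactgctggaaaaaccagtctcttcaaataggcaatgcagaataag
CYP27A1 intron, chr2:218805651-218805913: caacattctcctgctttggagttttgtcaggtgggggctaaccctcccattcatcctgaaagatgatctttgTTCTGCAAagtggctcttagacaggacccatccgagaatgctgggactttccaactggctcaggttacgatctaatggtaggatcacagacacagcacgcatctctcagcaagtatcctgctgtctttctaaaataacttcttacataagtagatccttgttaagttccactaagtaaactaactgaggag
Matches were few in these windows. The MRTFA window held 1 C/EBP match and 1 AP-1 match, the CYP27A1 window held 1 C/EBP match, and the other windows held none of these motifs. The NACA window is coding sequence of a long exon built of near repeats, and its GC content of 63.7% and that of the TTYH3 window (67.0%) were above the 43.7% to 45.7% of the other 3.

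Lost distal peaks were narrow. The median width was 461 bases (quartiles 360 and 647, range 289 to 4016), against 1012 bases for kept distal peaks. Together the lost peaks covered 2816952 of the 19403380 bases under distal NC peaks. When the distal NC peaks were split into 5 equal groups by width, the lost share was 63.7% in the narrowest group (289 to 427 bases) and 46.0%, 25.2%, 10.3% and 1.82% in the wider groups. Only 360 lost peaks (7.08%) reached 1000 bases. The distal peaks gained in sh-ANP32B, which shared no base with a NC peak, were 3361 of 16145 distal sh-ANP32B peaks. They were as narrow, with a median of 411 bases. Because width enters every contrast between lost and kept peaks, differences in place, Kasumi-1 state and motifs below are also read at equal width, that is, within the 5 width groups and weighted by the number of lost peaks in each.

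**Figure D1:**
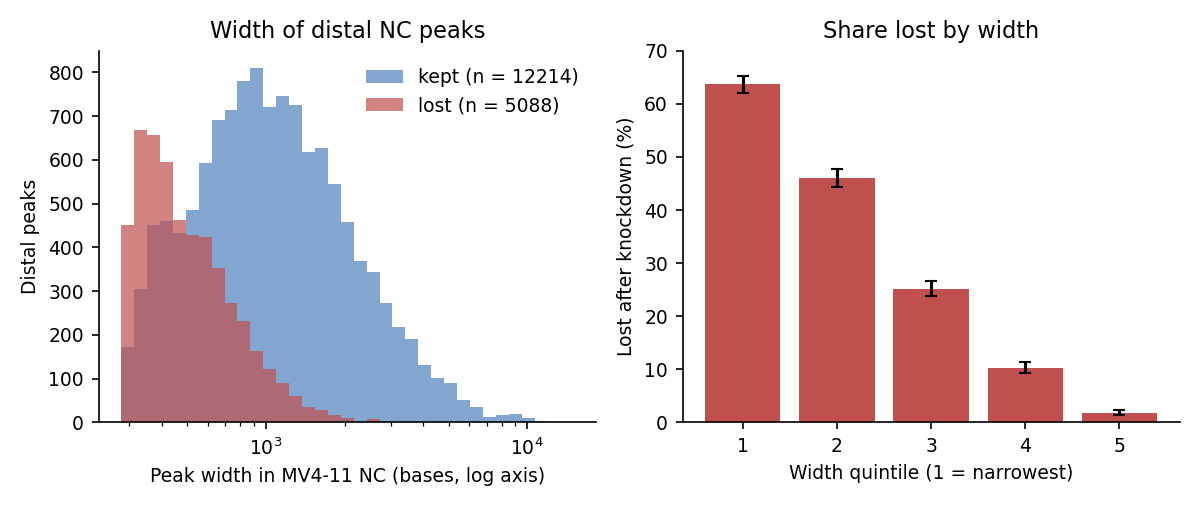
Left, the number of distal MV4-11 NC peaks by width in bases on a log axis, for lost (red) and kept (blue) peaks. Right, the percent of distal NC peaks lost in each width quintile with 95% Wilson intervals, which went down from 63.7% in the narrowest to 1.82% in the widest quintile.

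The lost peaks did not stand apart from the kept ones in base composition. The median GC content was 47.5% in both, and the median ratio of observed to expected CpG was 0.214 in lost and 0.223 in kept peaks. Lost promoter peaks had a higher median GC content of 63.8% and CpG ratio of 0.739 over 2033 peaks. Kept promoter peaks were not measured, so whether this goes with loss was not tested.

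By place, most lost peaks lay inside genes. The center fell in an intron of a protein-coding gene for 2767 lost peaks (54.4%, 53.0 to 55.7), against 51.9% of kept peaks, a difference of 1.71 percentage points at equal width (-0.273 to 3.69). The first intron alone held 915 lost peaks (18.0%). Another 1470 lost peaks were intergenic (28.9%, against 30.1% of kept peaks; -1.05 points at equal width, -2.86 to 0.758). A center in a long noncoding RNA (lncRNA) gene was less frequent among lost peaks, with 627 (12.3% against 14.6%), and stayed so at equal width (-1.80 points, -3.15 to -0.448). A center in an exon of a canonical transcript was more frequent, with 224 lost peaks (4.40% against 3.29%; 1.14 points at equal width, 0.385 to 1.90). For intron and intergenic shares the interval of the difference at equal width held 0.

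The median distance from the center of a lost peak to the nearest start of a protein-coding gene was 31972 bases, against 33857 for kept peaks. A start lay within 50000 bases for 3234 lost peaks (63.6%, against 61.2% of kept peaks), which was 2.55 points more at equal width (0.620 to 4.47). The nearest lost peak to the edge of the rule ended 2503 bases from a start, and the farthest lost promoter peak 2498 bases.

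The distance to what remained after knockdown varied over several orders of magnitude. Counted between peak edges, the nearest sh-ANP32B peak was a median of 6483 bases away (quartiles 1460 and 32276). It lay within 1000 bases for 936 lost peaks (18.4%), between 1000 and 2500 bases for 752, and between 2500 and 12.5 kb for 1385. In all, 3073 lost peaks (60.4%) were within 12.5 kb of a sh-ANP32B peak, and 549 (10.8%) were more than 100000 bases from any. For 4310 lost peaks (84.7%) the nearest sh-ANP32B peak was one that shared bases with a NC peak. A gained peak lay within 1000 bases of 205 lost peaks (4.03%) and within 12.5 kb of 851 (16.7%).

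At the edge of the rule, the call turned on single bases. The closest lost peaks were 591 bases near HSD17B10 on chromosome X, 493 bases in the first intron of MAP3K5 and 385 bases in the first intron of RAI1, at 1, 4 and 6 bases from a sh-ANP32B peak. The kept peaks with the least overlap were in introns of PSMD12, RUNX1 and CPQ and shared 1, 1 and 3 bases. At the other end, a peak of 334 bases on chromosome 22 was 3797326 bases from any sh-ANP32B peak, one of 319 bases near MBL2 on chromosome 10 was 2431217 bases away, and one of 740 bases near KLHL4 on chromosome X was 2114135 bases away. None of these 3 had a Kasumi-1 peak.

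**Figure D2:**
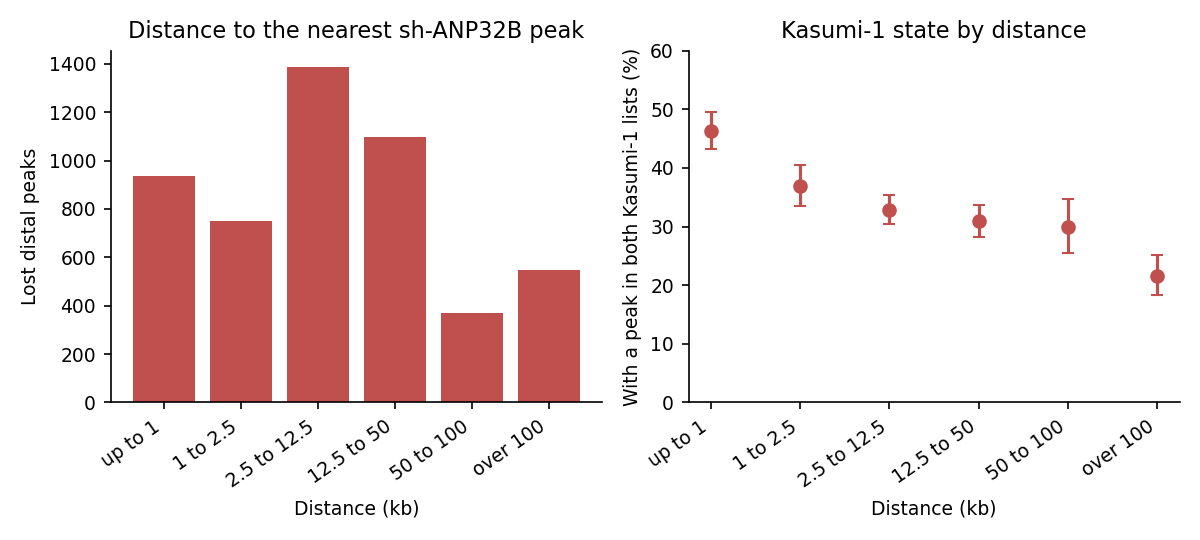
Left, the number of lost distal peaks by the distance in kb from their edge to the nearest MV4-11 sh-ANP32B peak. Right, the percent of each distance group that had a peak in both Kasumi-1 lists, with 95% Wilson intervals, from 46.4% within 1000 bases to 21.5% beyond 100000 bases.

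Lost peaks within 1000 bases of a remaining peak were in an intron in 61.0% of cases, and those beyond 100000 bases in 40.4%. Both sets were similar in width, with medians of 439 and 467 bases. The closest lost peaks lay more often inside genes than the isolated ones.

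Distal NC peaks at most 12.5 kb apart were joined into 9757 domains, the usual way to find enhancer clusters. A lost peak occurred in 4041 domains. In 1773 of them lost and kept peaks stood together, and these held 2536 lost peaks (49.8%). A further 2251 domains were lost whole, with no sh-ANP32B peak inside, and held 2506 lost peaks (49.3%). Whole losses were nearly all small, as 2027 were single peaks, 224 had 2 or more peaks, 29 had 3 or more and the most was 4. The last 46 lost peaks were in 17 domains that had lost every peak but held a sh-ANP32B peak between them. The lost share was 32.6% in domains of 1 peak and 21.1% (18.7 to 23.6) in the 82 domains of 10 or more peaks, where distal peaks of the same widths gave 25.5%. The 500 largest domains held 717 lost peaks (14.1%, against 20.5% of kept peaks), a difference of -0.237 points at equal width (-1.61 to 1.13). Losses also lay beside each other, in that the nearest other NC peak was itself lost for 32.8% of lost and 24.9% of kept peaks (8.37 points more at equal width).

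By chromosome, the lost share ran from 22.5% on chromosome 13 (19.0 to 26.4, 111 of 493 peaks) to 37.6% on chromosome 22 (33.3 to 42.1, 175 of 465). Peaks of the same widths gave 29.5% and 29.2%. Copy number was not read here, and its part in these shares was not tested.

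The widest whole domain lost lay on chromosome 2 near TNS1, which encodes the focal adhesion protein tensin 1. It ran from 218017154 to 218021879 with 2 peaks of 4100 bases in sum, both present in both Kasumi-1 lists, and the nearest sh-ANP32B peak was 24248 bases away. All 6 distal NC peaks nearest to TNS1 were lost. The next, on chromosome 6 from 139577637 to 139591676, had 3 peaks of 3743 bases in sum in the lncRNA gene ENSG00000226571. Its nearest protein-coding start, 210008 bases away, was that of CITED2, a coactivator that binds EP300 and CREBBP, and none of its peaks was in a Kasumi-1 list. The third lay on chromosome 8 from 129581805 to 129593919 inside the lncRNA gene CCDC26, in a region known for enhancers that act on MYC in blood cells, with 2 peaks of 3423 bases in sum, both in both Kasumi-1 lists. CCDC26 held 13 distal NC peaks in all, of which 4 were lost with 5304 of their 26518 bases. The rest were kept by the rule, but how many of their bases stayed covered was not counted. The nearest protein-coding start to this domain was that of GSDMC, a gasdermin.

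The widest single losses were exceptions to the narrow rule. The 10 widest measured 2616 to 4016 bases, which put them above 92.7% to 97.6% of distal NC peaks. The widest, 4016 bases in exon 3 of NACA on chromosome 12 from 56716122 to 56720137, stood 870 bases from a sh-ANP32B peak. NACA encodes a chaperone subunit that meets new proteins at the ribosome. Kasumi-1 peaks covered 3527 of its bases in NC and 2633 in sh-ANP32B. The second, 3995 bases in intron 5 of TTYH3 on chromosome 7, had 2645 bases under Kasumi-1 NC peaks and 289 under sh-ANP32B peaks. The third, 3317 bases in intron 4 of MRTFA on chromosome 22, a coactivator of serum response factor, had 2277 and 2608, and its nearest start was that of SGSM3. The first intron of RRP1B, a nucleolar protein, lost 3226 bases at 420 bases from a sh-ANP32B peak, and the first intron of ROR2, a Wnt receptor, lost 2871 bases at 49241 bases from one. Near PTMA, which encodes the acidic chromatin protein prothymosin alpha, 2663 bases were lost, and near PLCXD1 on the X chromosome 2802. Near LYL1, a blood transcription factor, 2616 bases were lost at 291 bases from a sh-ANP32B peak. Of the 10, all but that in GNAQ were under peaks of both Kasumi-1 lists.

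The widest lost peaks with no Kasumi-1 peak had a different set of nearest genes. The first intron of GNAQ, a G protein subunit, held one of 2748 bases on chromosome 9 whose nearest Kasumi-1 peak was 7120 bases away. The first intron of CYP27A1, which starts the acidic route of bile acid synthesis, held one of 2113 bases with Kasumi-1 peaks no closer than 58339 bases. The others were 1901 bases in intron 11 of MAD1L1, a spindle checkpoint gene, 1880 bases in intron 12 of NAT10, an RNA acetyltransferase, and 1862 bases in the domain near CITED2.

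The Kasumi-1 lists did not enter the rule, and the label reservation above holds for all that follows on them. A peak in both Kasumi-1 lists was present at 51.6% of all distal NC peaks. It was present at 1735 lost peaks (34.1%, 32.8 to 35.4) and at 7193 kept peaks (58.9%), a difference of -24.8 points (-26.3 to -23.2). Most of this went with width, and at equal width the difference was -4.44 points (-6.28 to -2.59). In the narrowest group 26.1% of lost and 29.6% of kept peaks were in both lists, in the middle group 42.3% and 49.8%, and in the widest 79.4% and 84.5%. The interval of the difference lay below 0 in the 4 narrower groups and held 0 in the widest, which had 63 lost peaks. The nearer a lost peak was to a remaining one, the more often it was found in Kasumi-1, from 46.4% within 1000 bases to 37.0%, 32.9%, 31.0%, 29.9% and 21.5% in the farther groups.

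**Figure D3:**
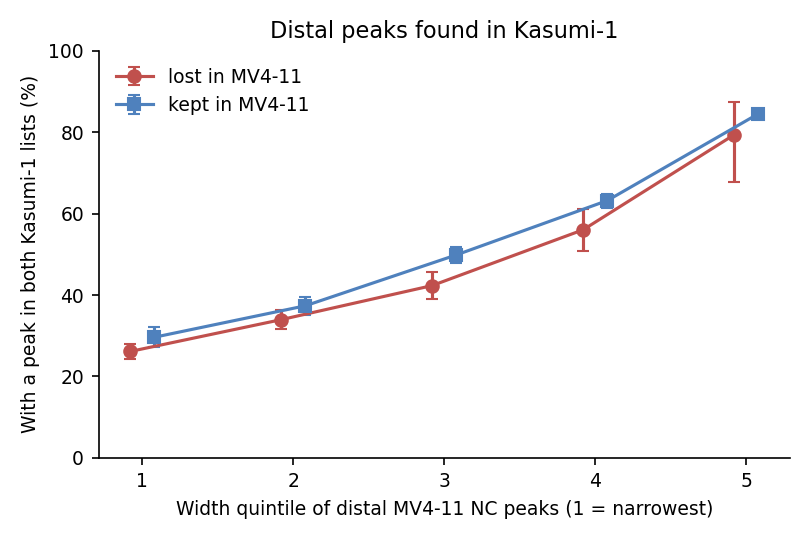
The percent of distal MV4-11 NC peaks with a peak in both Kasumi-1 lists, by width quintile, for lost (red circles) and kept (blue squares) peaks with 95% Wilson intervals. Both rose with width, and lost peaks lay below kept peaks in each quintile, with differences of -7.53 to -3.41 percentage points.

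The other states were rarer or took up the rest. In neither Kasumi-1 list were 2974 lost peaks (58.5%, against 35.2% of kept peaks; 4.41 points more at equal width, 2.48 to 6.34). In Kasumi-1 NC alone were 147 (2.89% against 1.99%) and in Kasumi-1 sh-ANP32B alone 232 (4.56% against 3.96%), and for both the difference at equal width held 0.

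Losses in Kasumi-1 were few, both at the sites lost in MV4-11 and over all distal Kasumi-1 NC peaks. Of the 1882 lost peaks under a Kasumi-1 NC peak, 147 (7.81%, 6.68 to 9.11) had no Kasumi-1 sh-ANP32B peak. Over all distal Kasumi-1 NC peaks, 9.53% (1300 of 13646) were lost by the same rule. Among kept MV4-11 peaks under a Kasumi-1 NC peak the share was 3.27%, or 6.15% at the widths of the lost ones, so that the difference at equal width was 1.66 points (0.0389 to 3.29). The bases of the lost peaks under Kasumi-1 peaks went from 915832 in NC to 944286 in sh-ANP32B, a ratio of 1.03, and the ratio for kept peaks was also 1.03.

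Of the 13 motifs searched, AP-1 set lost and kept peaks apart most. The letters, read with their reverse complement in the central 300 bases, were those given above for RUNX, PU.1/ETS, C/EBP and AP-1, with CCGGAAGT for ETS factors with a CC flank, GGCNGTT for MYB, TGATTTAT for HOXA9/MEIS, AGATAA for the GATA factors of red cells and mast cells, CACGTG for the E-box of MYC and its relatives, GAAANNGAA for IRF, TTCCNGGAA for STAT, GGGCGG for the GC box of SP and KLF factors, and AGNNGGCGC for CTCF. A match is a run of letters and not a bound site. AP-1 letters were in 561 lost peaks (11.0%, 10.2 to 11.9) and in 2073 kept peaks (17.0%, 16.3 to 17.6), with 15.2% over all distal and 12.3% over all NC peaks. At equal width the difference was -6.23 points (-7.59 to -4.87), and at equal width and GC content -5.65 points (-6.97 to -4.32). The lost share was lower in each width group, at 11.1% against 14.8%, 11.8% against 18.0%, 9.75% against 22.2%, 11.2% against 18.0% and 4.76% against 12.3% from narrow to wide, with an interval that held 0 in the widest.

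The same was seen in every subset looked at. Within introns AP-1 letters were in 10.4% of lost and 16.4% of kept peaks, and in intergenic sequence in 13.3% and 18.2%. Among peaks in both Kasumi-1 lists the shares were 8.76% and 14.5%, and among peaks in neither list 12.4% and 21.1%. The distal peaks gained in sh-ANP32B, as narrow as the lost ones, had AP-1 letters in 17.7% (16.5 to 19.1).

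The GC box moved the other way. It was in 579 lost peaks (11.4%, 10.5 to 12.3) and 1189 kept peaks (9.73%), with 22.8% over all NC peaks, a difference of 2.77 points at equal width (1.61 to 3.94) and 1.70 points at equal width and GC content (0.549 to 2.86). Gained distal peaks held it in 8.42%. Among peaks in neither Kasumi-1 list it was in 7.26% of lost and 3.35% of kept peaks, and among intergenic peaks in 11.2% and 9.59%. It was higher in lost peaks in each width group, but the interval of the difference held 0 in the 3 wider groups and among intergenic peaks (1.57 points, -0.238 to 3.51). The CTCF letters, which mark sites where chromatin loops are anchored, were in 2.04% of lost and 1.72% of kept peaks (0.693 points at equal width, 0.193 to 1.19).

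The motifs of the blood factors differed little. PU.1/ETS letters were in 4.50% of lost and 5.26% of kept peaks (-1.04 points at equal width, -1.88 to -0.190), and IRF letters in 9.63% and 10.7% (-1.37 points, -2.57 to -0.166). At equal width and GC content the interval for IRF held 0 (-1.06 points, -2.24 to 0.115), as it did in the central 500 bases at equal width (-1.43 points, -2.89 to 0.0208). For RUNX the shares were 8.59% and 9.36%, for C/EBP 17.7% and 19.4%, for MYB 10.8% and 11.7%, for GATA 14.1% and 15.1%, and for HOXA9/MEIS 1.34% and 1.27%. The interval of the difference at equal width held 0 for these and for the E-box, STAT and CC-flanked ETS letters. In the central 500 bases it no longer held 0 for RUNX (-1.92 points, -3.27 to -0.575) and STAT (-0.527 points, -1.03 to -0.0278). The intervals are not adjusted for the 13 motifs searched.

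**Figure D4:**
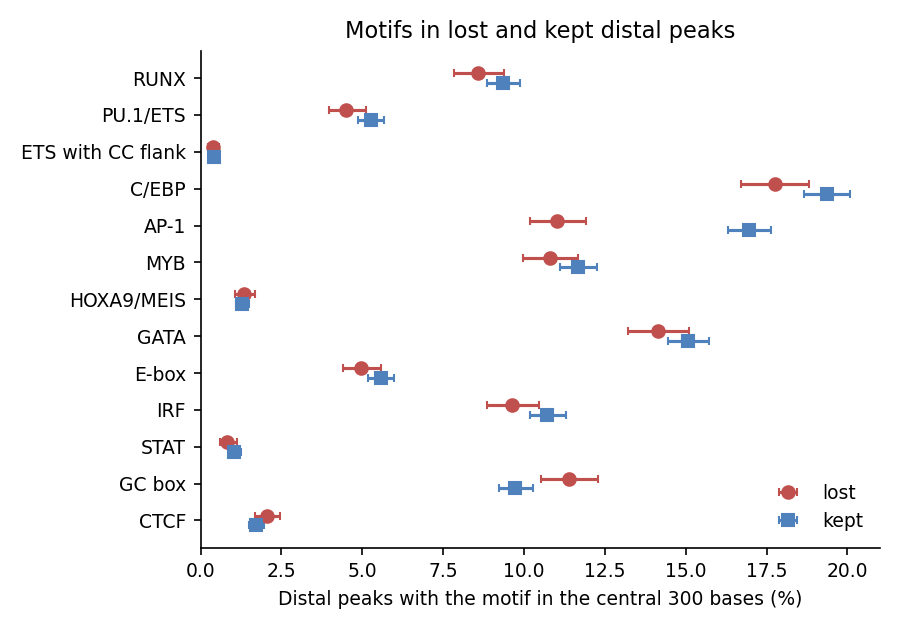
The percent of lost (red circles) and kept (blue squares) distal MV4-11 NC peaks with each of 13 motifs in the central 300 bases, with 95% Wilson intervals. AP-1 is lower in lost peaks (11.0% against 17.0%) and the GC box higher (11.4% against 9.73%).

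The lost peaks were spread over many genes. Of 6405 protein-coding genes that were nearest to a distal NC peak, 3287 were nearest to a lost one, 2236 of them to just 1, and 77 to 5 or more. Of the 2103 genes with at least 3 distal peaks, 39 had lost all of them and 521 had lost none. The nearest gene of a lost peak kept its promoter peak in 46.4% of cases, against 48.5% for kept peaks, and at equal width the difference turned to 1.00 points more (-0.972 to 2.98). It lost its promoter peak in 10.3%, against 8.55% for kept peaks (1.35 points more at equal width).

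Genes nearest to the most lost peaks were led by ELFN1, a synaptic protein gene on chromosome 7, with 19 of 37 lost, where peaks of the same widths would give 11.4. ELFN1 had no promoter peak in either MV4-11 list, and all 19 lost peaks lay in the neighboring gene MAD1L1. MAD1L1 held 50 distal NC peaks and lost 25 of them, 20 of these in neither Kasumi-1 list. For TPTE on chromosome 21, with 13 of 46 lost (12.2 at the same widths), the widest lost peak was 4410635 bases from the start, so that nearest says little there. SH3KBP1, an adaptor for receptor uptake, and TSNARE1 each lost 11 of 25, against 7.03 and 7.48 at the same widths. CHST11, a chondroitin sulfotransferase, lost 10 of 27, close to the 9.02 at the same widths.

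GALNT2, which starts O-linked glycosylation, lost 9 of 14 distal peaks, against 2.08 for peaks of the same widths. These held 9463 bases, 8 of the 9 were in both Kasumi-1 lists, and all lay within the gene, whose promoter peak was kept. BCL11A, a zinc finger repressor of blood cells, lost 9 of 15 (4.24 at the same widths), and the widest of these, 1715 bases in the lncRNA gene MIR4432HG, was 40442 bases from a remaining peak. PREX1, an activator of Rac in neutrophils, lost 9 of 24 (5.24 at the same widths), of which 7 were in both Kasumi-1 lists. FNDC3B lost 9 of 33, below the 9.70 at the same widths, and UQCRFS1, a subunit of respiratory complex III, 8 of 19 (7.23). As these genes were picked for their number of lost peaks, the counts are a description.

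**Figure D5:**
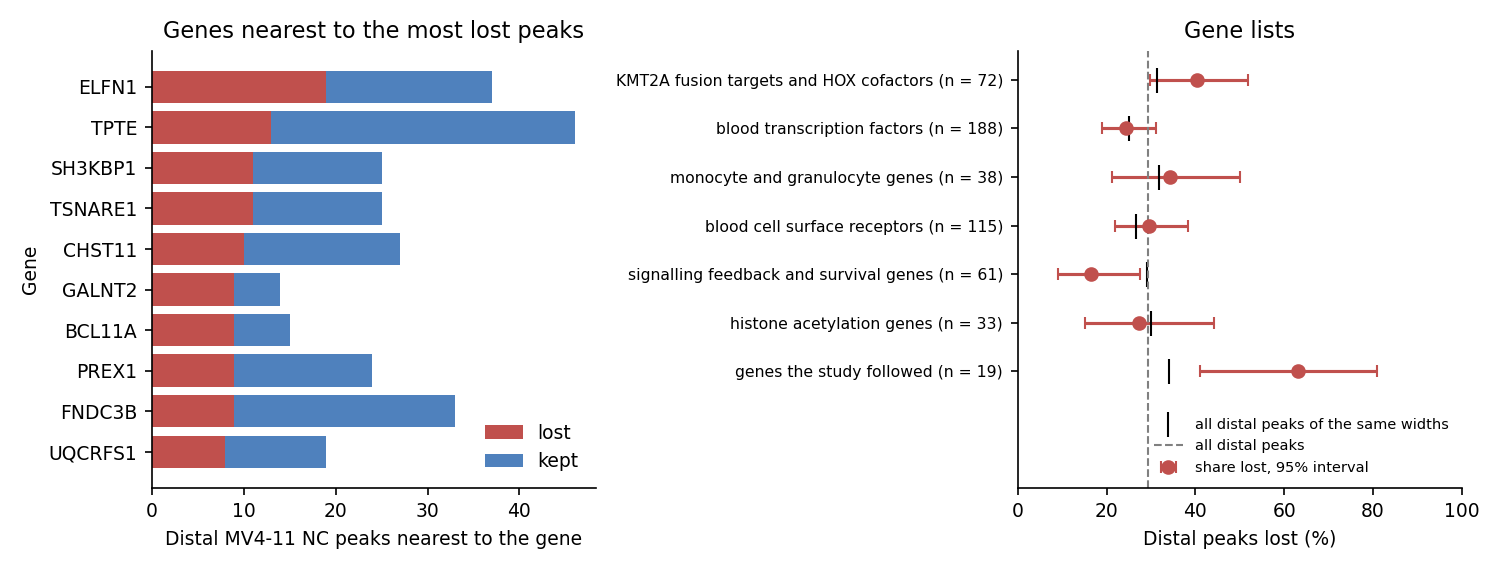
Left, distal MV4-11 NC peaks nearest to each of the 10 genes with the most lost peaks, split into lost (red) and kept (blue). Right, the percent of distal peaks lost for each of 7 gene lists with 95% Wilson intervals, the share among all distal peaks of the same widths (black ticks) and the share of all distal peaks, 29.4% (dashed line); the interval of signalling feedback and survival genes lay below both and that of the genes the study followed above both.

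Among the 39 genes that lost all of at least 3 distal peaks, a few of known role are given, chosen after their values were seen. CCND2, which encodes the cell cycle activator cyclin D2, lost 3 of 3, each present in both Kasumi-1 lists. CDKN1A, which encodes the cell cycle inhibitor p21, lost 3 of 3. HOXC6 lost 3 of 3, all in both Kasumi-1 lists, as did DEF6, a signaling protein of lymphocytes. NFIC, a transcription factor, lost 5 of 5. Peaks of the same widths would give 1.20 for CCND2, 1.17 each for CDKN1A and DEF6, 1.38 for HOXC6 and 2.27 for NFIC. How many such genes the lost share of all distal peaks would give was not tested. CCND2, CDKN1A, HOXC6, DEF6 and NFIC each had a promoter peak in NC, which CCND2 lost after knockdown and the other 4 kept. AGAP4 and TBC1D3K, with 3 of 3 each, belong to families of near-identical copies, so their counts are uncertain.

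In the list of KMT2A fusion targets and HOX cofactors, 29 of 72 distal peaks were lost (40.3%, 29.7 to 51.8), against 29.4% of all distal peaks and 31.4% at the same widths. BCL11A gave 9 of the 29. ARID1B, a subunit of the SWI/SNF remodeler, lost 4 of 5, SATB1, a chromatin organizer, lost 3 of 6 and its promoter peak, and MYB lost 3 of 8, the widest of them 861 bases in intron 15. ZEB2 lost 1 of 15 and HOXA9 0 of 2. Among peaks of at least 1000 bases the list lost 4% (0.710 to 19.5), an interval that held the 5.49% of all distal peaks.

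Near blood transcription factors 46 of 188 distal peaks were lost (24.5%, 18.9 to 31.1), close to the 25.0% of peaks of the same widths. IKZF1 lost 5 of 15, ETV6 5 of 25, KLF4 4 of 8 and RUNX3 4 of 8. The lost RUNX3 peaks covered 3088 bases and were all in both Kasumi-1 lists. RUNX1, by contrast, lost 1 of 19. Several genes, such as MYB, ZEB2 and LMO2, are in both of these lists.

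Near monocyte and granulocyte genes 13 of 38 were lost (34.2%, 21.2 to 50.1; 31.8% at the same widths). FCGR2A, a receptor for antibody, lost 4 of 5 and its promoter peak. It lies among near-identical copies, so its counts are uncertain, and each of its lost peaks was in just 1 of the Kasumi-1 lists. TLR4, the endotoxin receptor, lost 3 of 6, CSF1R, the receptor of macrophage growth factor, 2 of 4, and PRTN3, a granule protease, its single distal peak of 400 bases and its promoter peak. Of the 13 genes of this list with a distal peak, 7 had a lost one, and among the others CYBB, a subunit of the phagocyte oxidase, lost 0 of 5 and TLR2 0 of 4.

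Near blood cell surface receptors 34 of 115 were lost (29.6%, 22.0 to 38.5; 26.7% at the same widths). CD34, a marker of immature blood cells, lost 5 of 11, IL6R 4 of 8 and the stem cell factor receptor gene KIT 4 of 9. CD38, a surface enzyme and antibody target, lost 3 of 3, the widest of them 928 bases at 64087 bases from a remaining peak. CD34, KIT and CD38 had no promoter peak in either MV4-11 list.

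Signalling feedback and survival genes lost the least, with 10 of 61 (16.4%, 9.16 to 27.6; 29.0% at the same widths). This list holds DUSP phosphatases and SPRY proteins, which damp ERK signaling, SOCS proteins and CISH, which damp cytokine receptors, and BCL2 relatives. DUSP4 lost 2 of 7, SOCS1 1 of 2, CISH 1 of 4 and BCL2 1 of 2. DUSP6 lost 1 of 10 and SPRY2 none of 7. In several other settings the interval of this list held the share of all distal peaks. With loss called under 50% of bases covered, the share of this list was 31.1% (20.9 to 43.6), beside 38.3%. A promoter window of 1000 bases gave 20% (12.1 to 31.3), beside 29.6%, and starts of all transcripts 17.4% (9.09 to 30.7), beside 29.9%. The interval stayed below with no sh-ANP32B peak within 1000 bases (6.80 to 23.8, beside 24.0%). The same was true with 1 minimum width and joining gap for all lists (8.86 to 28.3, beside 28.9%).

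Near histone acetylation genes 9 of 33 were lost (27.3%, 15.1 to 44.2; 29.9% at the same widths). CREBBP, one of the acetyltransferases that write H3K27ac, lost 2 of 2, both in neither Kasumi-1 list, whereas EP300 lost 1 of 4 and the deacetylase HDAC4 0 of 4. NCOA3, a coactivator, lost its single distal peak of 1396 bases, and HDAC7 1 of 3. Of the 13 genes of this list with a distal peak, 7 had a lost one.

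Near the genes the study followed, 12 of 19 were lost (63.2%, 41.0 to 80.9; 34.1% at the same widths). The study chose most of these genes with its own knockdown libraries in view, so the share of the list is not independent evidence. ANP32A and ANP32B came from its earlier H3K27ac screen of patient samples. Among peaks of at least 1000 bases it was 40% with a wide interval (11.8 to 76.9), where 5.49% of all distal peaks were lost. ANP32A, the closest relative of ANP32B, lost 4 of 5, the widest of them 1086 bases in its first intron at 675 bases from a remaining peak. ANP32B lost its single distal peak, 781 bases in its first intron. MYC lost 2 of 6, with the widest 1057 bases in the lncRNA gene PVT1 at 50267 bases from a remaining peak, and its promoter peak was lost as well. The other losses were single peaks of 337 to 549 bases nearest to CCNB1, MCM6, TRMT2A, BCL2 and CTPS1, of which the CCNB1, MCM6, TRMT2A and CTPS1 peaks were in neither Kasumi-1 list and the BCL2 peak in both.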

How the data were processed

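Peak lists of H3K27ac CUT&Tag were deposited by the authors as start, end and length in bases on hg38, with no height, q-value or read total. Per the study's methods the authors aligned reads with Bowtie2 v2.2.5, removed duplicates with Picard, merged replicates with samtools v1.15.1 and used MACS2 v2.2.7 (q-value 0.01) as peak caller. The submitters' processing notes name Bowtie2 2.4.4 and MACS3 3.0 instead. Use of IgG as control is not stated. Merging leaves the variation between replicates unmeasured, and a peak near the caller's threshold can drop out with lower depth.

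Overlap, distance and joined domains were computed with Python 3.11.15, numpy 2.4.6 and pandas 2.3.3, with canonical starts of 19970 protein-coding genes in GENCODE v44. Functions were tested on simulated data. Shares have Wilson intervals, differences Newcombe intervals, and differences at equal width weighted normal intervals. Named were the nearest genes of the 10 widest lost peaks and of the 5 widest in both and in neither Kasumi-1 list, the 10 genes with most lost peaks, up to 4 genes per list, the genes the study followed, and the 5 widest whole domains. The members, lists and tests were chosen with earlier results of these data known. Results for 2 genes and 1 sequence that these rules would name are not reported here.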

Additional observations from a re-analysis of the deposited data

Results flagged for a closer look

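The number of distal peaks moved in opposite directions in the lines. Knockdown over control gave a ratio of 0.933 in MV4-11 (16145 over 17302 distal peaks) and 1.09 in Kasumi-1 (14843 over 13646), and the bases of the lost MV4-11 peaks under Kasumi-1 peaks had a ratio of 1.03. With 1 list per group this difference between the lines was not tested, and a difference in library depth cannot be told apart from it.

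On sequences other than chromosomes 1 to 22 and X, which the rule left out, 312 of 886 MV4-11 NC peaks shared no base with a sh-ANP32B peak (35.2%, 95% Wilson interval 32.1 to 38.4). Of these 886 peaks, 816 were on alternate contigs, and the difference from the main chromosomes was not tested.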

How the results depend on the processing

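No paired analysis was possible because each group has 1 list and no test was run. The difference in Kasumi-1 state kept its direction, and the cause of each shift was not tested beyond what a setting leaves out by construction.

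With loss called only where no sh-ANP32B peak lay within 1000 bases, the lost share was 24.0%, the intron share 52.9%, the share within 12.5 kb 51.5%, the share in both Kasumi-1 lists 31.3%, its difference at equal width -8.89 points, the median GC 47.2% and the surface receptor share 21.7%. With loss called under 50% of bases covered, these were 38.3% lost, 69.6% within 12.5 kb, 38.7% in both Kasumi-1 lists, 36.2% for blood transcription factors and 31.1% for signalling feedback genes.

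Among NC peaks of at least 1000 bases, 360 were lost (5.49%), 55.6% of them within 12.5 kb and 59.4% in both Kasumi-1 lists (-6.49 points at equal width), with a median GC of 47.1% and 238 whole domains. The list shares were 4% for KMT2A targets, 5.88% for blood factors, 6.67% for monocyte genes, 4.17% for receptors, 0 for feedback genes, 10% for acetylation genes and 40% for the genes the study followed. The interval held the 5.49% of all distal peaks for each list but the genes the study followed (11.8 to 76.9). Of 54 named genes, 27 had no lost peak left.

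With starts of all transcripts, the intron share was 52.4%, the share within 12.5 kb 58.1%, that in both Kasumi-1 lists 31.4% and the median GC 46.2%. With 1 minimum width and joining gap for all lists, 54.5% were within 12.5 kb and 36.7% in both Kasumi-1 lists, and the median GC was not run. The share in both Kasumi-1 lists was 35.7% with a promoter window of 1000 bases and 43.4% with a Kasumi-1 peak counted within 1000 bases. At equal width that difference stayed below 0 in all 7 alternatives, from -8.89 to -4.08 points. Several lists changed side of the share of all distal peaks under the same setting. The KMT2A list went from above to below among peaks of at least 1000 bases, and the acetylation list from below to above there and, at 42.4%, with loss called under 50% covered. The receptor list went from level to below with no sh-ANP32B peak within 1000 bases. It was also below among peaks of at least 1000 bases and, at 27.8% against 29.9%, with starts of all transcripts. The monocyte list went from above to below with starts of all transcripts (29.2%) and with loss called under 50% covered (36.8% against 38.3%). The blood factor list went from below to above among peaks of at least 1000 bases. After each of these shifts the interval of the list held the share of all distal peaks. In the central 500 bases the HOXA9/MEIS difference at equal width turned from 0.0989 to -0.121 points, with 0 inside both intervals, and AP-1 letters were in 17.7% of lost and 25.9% of kept peaks. The correction for GC content was added after the data were seen.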
